A study of Mus musculus with 16 samples.

Results

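Substrates of the mitochondrial disulfide relay were followed in mouse skeletal muscle: 32 genes of the 55487 in the deposited table, chosen by symbol as twin CX9C and CX3C proteins and other clients of CHCHD4. RNA-seq covered 4 groups of 4 libraries: CHCHD4 Tg with treadmill training (Tg trained), CHCHD4 Tg with no training (Tg untrained), wild type with treadmill training (WT trained) and wild type with no training (WT untrained). The design asked what goes with CHCHD4 and with training. The muscle, mouse strain, age, length of training, and the promoter and species of the transgene are not given in the sources used here. Whether each library is a mouse of its own is likewise not given, and the p-values below cover only differences from library to library. All 32 genes passed the filter on low counts that left 17490 genes to test. Library totals ran from 40888325 to 61703724 counts. The 10 fibre markers (Ckm, Acta1, Ttn and others) summed to 128800 to 196900 CPM (counts scaled to library size with TMM factors) in a library, and none was at 0.

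The intermembrane space lies between the membranes of the mitochondrion. Small proteins made in the cytosol enter it reduced and unfolded through the TOM pore. CHCHD4 (Mia40 in yeast) binds them and passes its own disulfide bond to their cysteines, which folds and traps them, and GFER (Erv1 in yeast) takes the electrons from CHCHD4 and hands them to cytochrome c. AIFM1 holds CHCHD4 at the inner membrane. The clients act in cristae structure, copper delivery to cytochrome oxidase, chaperoning of membrane proteins, the respiratory complexes and superoxide defence. Muscle fibres carry many mitochondria, and endurance training is known to raise their content.

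The cysteine spacing that marks most of these clients could be read from the GENCODE coding sequences of GRCm38, taken as the principal transcript of each gene. A CX9C pair was searched as a Cys codon (TGT or TGC), 9 further codons and another Cys codon, and a CX3C pair likewise with 3 codons between; a gene had the twin motif where 2 pairs followed each other within 40 codons on the coding strand. The twin CX9C was present in 17 of the 32 genes and the twin CX3C in 6, all of them small Tim chaperones. Of 21572 coding sequences searched, 3.55% held a twin CX9C and 3.94% a twin CX3C. The 32 genes were chosen partly as twin CX9C and CX3C proteins, so their larger share follows from that choice. In 9 genes these letters were in neither arrangement: Coa6, Coa7, Timm17a, Timm22, Ndufb10, Cox6b1, Uqcrh, Sod1 and Ccs. The stretches below run from the first to the last Cys codon of the twin motif, with Cys codons in capitals. They show the oxidase itself and the 3 substrates to which the comparisons return. In each gene the shortest twin motif is shown: Chchd5 has 8 Cys codons and 4 CX9C pairs in all, of which its stretch shows 2 pairs. The stretch of Chchd4 (coding strand minus, chr6:91465144-91465245) covers codons 64 to 97, that of Chchd5 (plus strand, chr2:129130429-129130524) codons 58 to 89, that of Cox17 (plus strand, chr16:38347176-38349298, intron removed) codons 26 to 55, and that of Timm8a1 (minus strand, chrX:134538202-134541462, intron removed) codons 43 to 66.
Chchd4: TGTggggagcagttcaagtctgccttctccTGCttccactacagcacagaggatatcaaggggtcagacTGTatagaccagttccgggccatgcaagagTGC
Chchd5: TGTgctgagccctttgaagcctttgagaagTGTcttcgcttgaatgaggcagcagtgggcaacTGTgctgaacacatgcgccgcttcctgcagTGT
Cox17: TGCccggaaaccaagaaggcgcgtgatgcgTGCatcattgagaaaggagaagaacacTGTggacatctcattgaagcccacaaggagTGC
Timm8a1: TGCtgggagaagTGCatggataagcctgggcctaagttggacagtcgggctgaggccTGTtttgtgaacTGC
The first 3 carry the long spacing, in which 9 codons part the cysteines of a pair. Timm8a1 carries the short one, in which 3 codons do.

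The 32 transcripts differed far more from each other than between groups. Over the 16 libraries, mean levels ran from 0.874 CPM for Chchd6, a MICOS subunit, to 195 CPM for Chchd10, a CHCH protein whose human counterpart is mutated in motor neuron disease and myopathy. Levels of different genes were compared per kilobase of exon union, where they ran from 0.346 CPM per kb for Chchd6 to 196 CPM per kb for Cox6b1, a subunit of cytochrome oxidase. The 6 respiratory chain subunits lay between 10.8 and 196 CPM per kb, the 9 genes of cytochrome oxidase assembly and copper delivery between 0.677 and 12.8 CPM per kb, and the 8 TIM chaperones and channels between 1.74 and 45.1 CPM per kb. The length used matters for some genes: with the principal transcript in place of the exon union, 5 genes (Chchd7, Cox17, Cmc1, Timm9 and Timm10b) moved by more than 5 ranks, and Cox17 read 43.4 in place of 3.34 CPM per kb. Strand was not stated, so reads of overlapping genes cannot be told apart. Cmc4 shares 43.5% of its exon bases with Mtcp1 on the same strand, and its values are uncertain. Timm8b shares 15.6% with Nkapd1, Coa6 14.1% with Tarbp1 and Chchd10 9.8% with Mmp11, each on the opposite strand. Timm10b shares 10.5% with Gm45799 on the same strand and Cox17 4.5% with Gm21987, which averaged 1.4 counts a library.

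**Figure D1:**
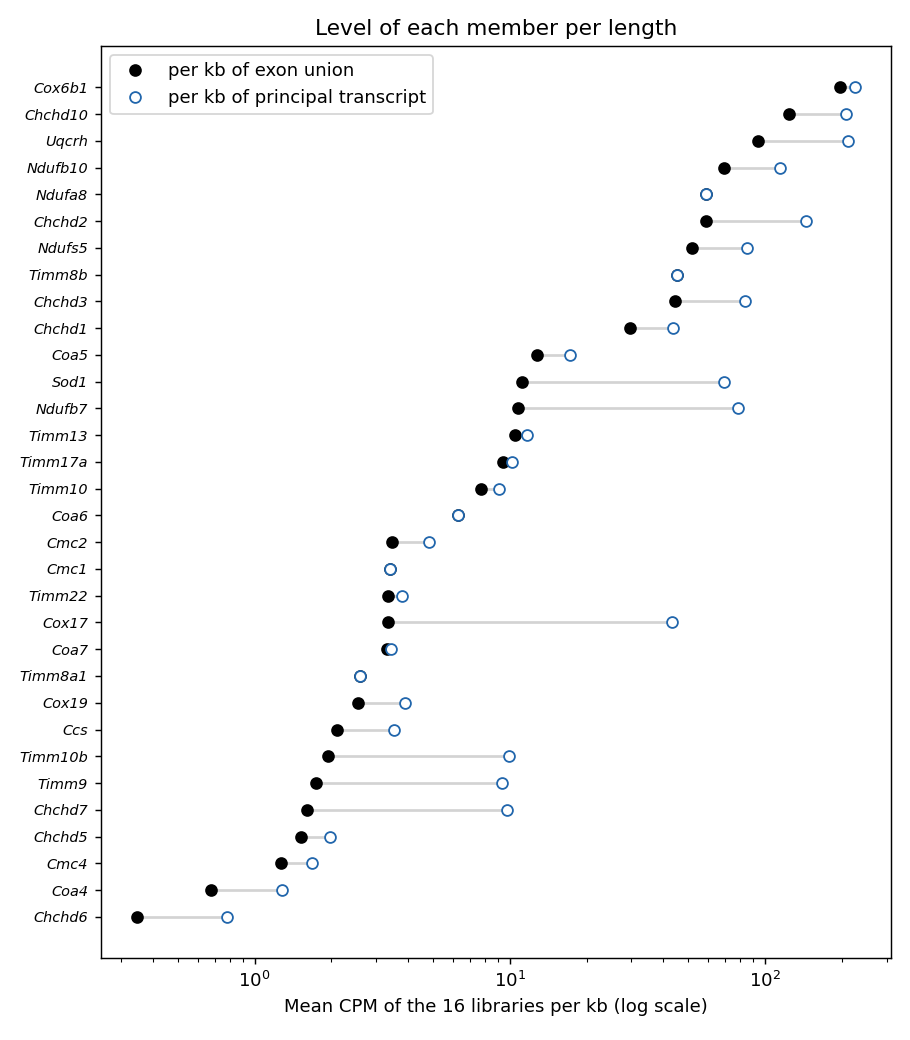
Mean CPM of each substrate over the 16 libraries per kilobase, on a log axis, with filled points for the exon union and open points for the principal transcript. Cox6b1 is highest and Chchd6 lowest on both lengths, and Cox17 shows a long line between its 2 points, 3.34 and 43.4 CPM per kb.

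A single library stood apart. In WT untrained replicate 2, 26 of the 32 transcripts lay below the mean of the other 3 WT untrained libraries, with a median log2 difference of -0.31, against 0.01 over all tested genes. The respiratory subunits summed to 280.7 CPM there and to 500.6 to 503.4 CPM in the other 3. Ndufb10 and Ndufa8, subunits of complex I, were lowest, with log2 differences of -1.11 and -1.06. Of the 6 that lay above, Cox19, Sod1 and Ccs were highest, at 0.71, 0.33 and 0.31. This library also had the highest TMM factor (1.28), the lowest share of counts from the mitochondrial genome (31.4%) and the lowest sum of fibre markers (128800 CPM). It held 14.9 CPM of the liver transcript Alb and 11.2 CPM of the slow-twitch myosin Myh7, which other libraries exceeded. Alb was at 35.6 CPM in WT trained replicate 4 and 15 CPM in Tg untrained replicate 2. Myh7 was at 64.3 and 42.1 CPM in Tg untrained replicates 2 and 3 and 29.7 CPM in WT trained replicate 3. In bulk tissue, fewer cells of a type and less RNA per cell cannot be told apart. Within groups, the median coefficient of variation of the 32 transcripts was 4.52% in Tg trained, 8.69% in Tg untrained, 6.98% in WT trained and 15.3% in WT untrained libraries. Several results that rest on WT untrained libraries are therefore given with and without this library.

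**Figure D2:**
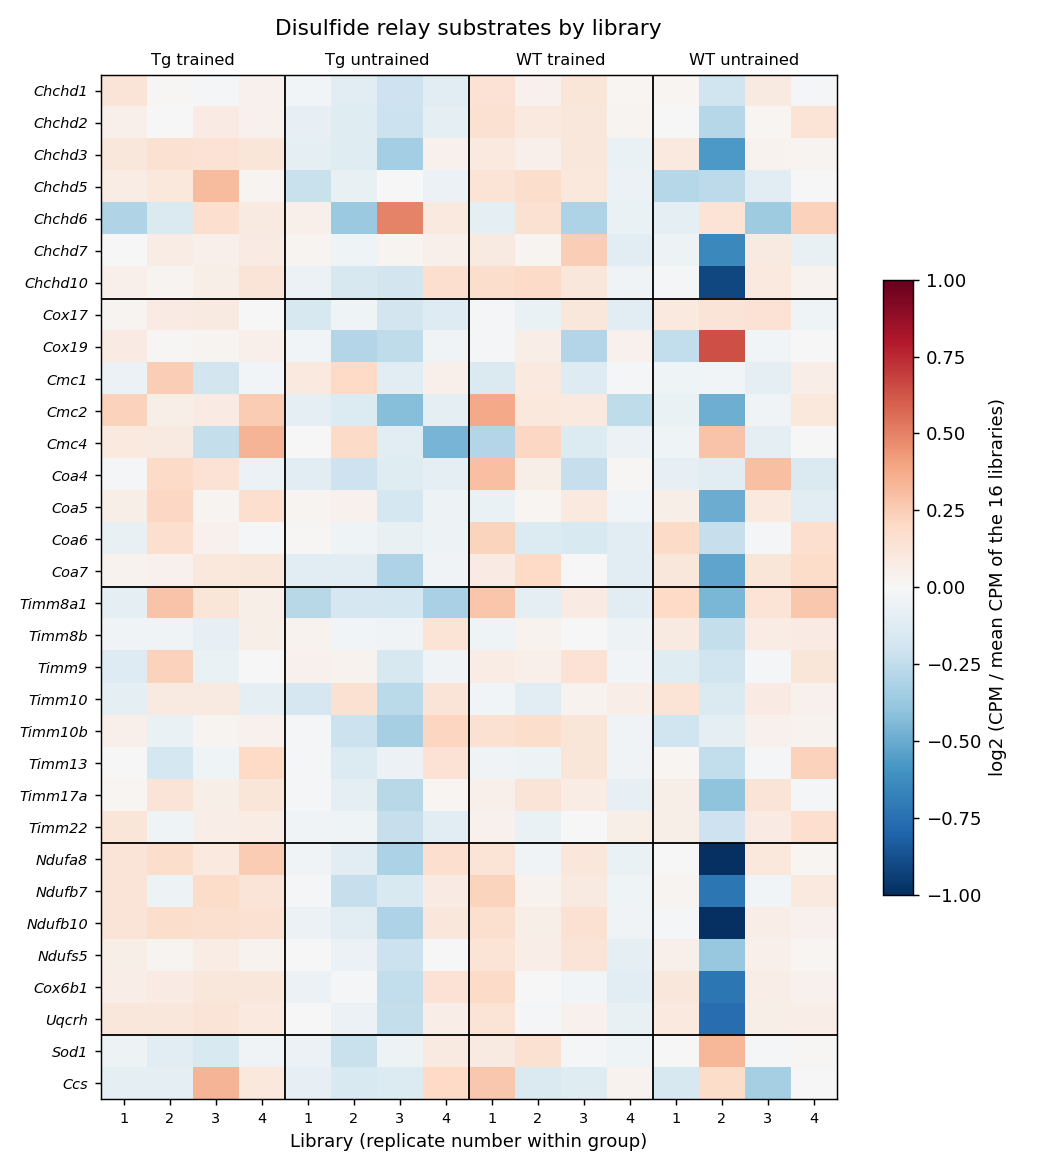
Each row is a substrate, grouped by role, and each column a library, grouped as Tg trained, Tg untrained, WT trained and WT untrained; colour gives log2 of CPM over the gene's mean of the 16 libraries, with colours ending at -1 and 1. The column of WT untrained replicate 2 holds the deepest blue, in Ndufb10 and Ndufa8, and the deepest red, in Cox19.

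The relay oxidase differed between genotypes in every library. Chchd4 (ENSMUSG00000034203.8, chr6:91462172-91473546) had 22.2, 21.6, 21.6 and 21.8 CPM in Tg trained and 20.5, 20.4, 18.1 and 22.2 CPM in Tg untrained libraries, against 8.04, 8.85, 8.41 and 7.26 CPM in WT trained and 8.13, 6.88, 7.62 and 8.98 CPM in WT untrained libraries. The genotypes did not overlap. Averaged over training, Chchd4 rose 2.62-fold in Tg (95% interval 2.41 to 2.86, edgeR adjusted p = 1.05e-09), and every left-out library kept it called, with log2 fold changes (log2FC) of 1.36 to 1.43. The rest of the relay did not pass the test: Gfer had a log2FC of -0.14 in Tg averaged over training (SE 0.05, edgeR adjusted p = 0.146), and Aifm1 of 0.08 (SE 0.08, edgeR adjusted p = 0.633). Their mean levels in Tg trained, Tg untrained, WT trained and WT untrained libraries were 13.9, 13.5, 15.8 and 14.3 CPM for Gfer and 16.9, 14.97, 16.1 and 14.1 CPM for Aifm1.

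None of the 32 substrates was called at an adjusted p under 0.05 in any of the 7 comparisons that edgeR's quasi-likelihood test made. The share of all tested genes called was 0% for training in Tg, 0.143% for training in WT, 0.743% for Tg against WT without training, 0.0114% for Tg against WT with training, 0.0515% for the difference between the training responses, 0.457% for training averaged over genotypes and 1.12% for Tg averaged over training. At an unadjusted p under 0.05, training in Tg gave 7 substrates higher and 0 lower, where 4.27% of all tested genes were higher and 6.81% lower. That count moved with the setting. It was 16 higher and 0 lower without WT untrained replicate 2, beside 7.51% and 8.38% of all tested genes. That library is not among those compared, but the fit shares its estimate of the spread over all groups. The substrates' median log2FC was 0.153 without it and 0.157 with it. With library totals in place of TMM factors the count was 0 higher and 1 lower, beside 0.84% and 10.6%. A fit of the 8 Tg libraries alone gave 14 higher, for which the share of all tested genes is not given here. Leaving out Tg untrained replicate 3 gave 3 higher and 0 lower, beside 446 and 797 of the 17490 tested genes. Leaving out Tg trained replicate 3 also gave 3 and 0, beside 680 and 1170. Training in WT gave 1 higher and 0 lower, beside 4.76% and 4.79% of all tested genes, and training averaged over genotypes 5 higher and 0 lower, beside 6.68% and 7.76%. Tg against WT gave 0 higher and 1 lower without training, beside 8.17% and 7.98% of all tested genes, 0 and 0 with training, beside 3.24% and 4.72%, and 0 and 1 averaged over training, beside 8.28% and 8.88%. The difference between the training responses, Tg minus WT, gave 1 higher and 0 lower, beside 2.43% and 3.59%. DESeq2 called 1 substrate in 1 comparison, Cox17 in Tg against WT without training, where it called 2.53% of all tested genes. The 95% confidence intervals limit the size of the differences: every interval of every substrate lay within 2-fold in all 7 comparisons. For Tg averaged over training and for training averaged over genotypes, all 32 intervals also lay within 1.5-fold. The fitted fold changes themselves ran from 0.908 to 1.08 for Tg averaged over training and from 0.93 to 1.21 for training averaged over genotypes.

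**Figure D3:**
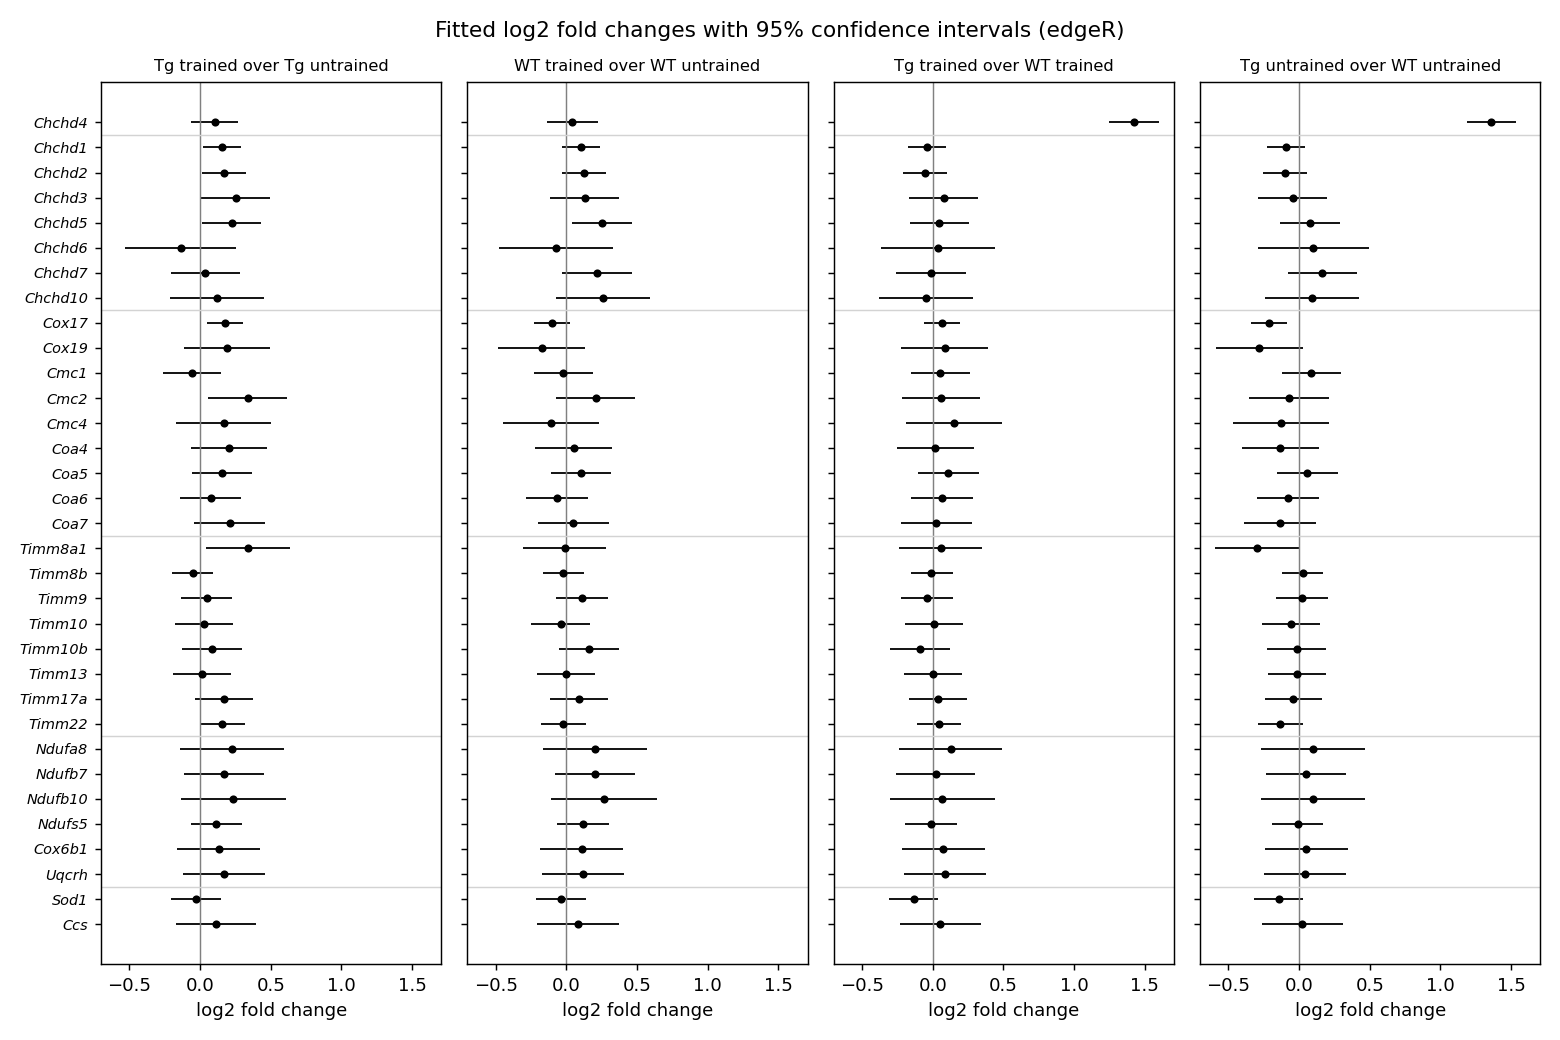
Fitted log2 fold change of Chchd4 and each substrate with its 95% confidence interval, in panels for Tg trained over Tg untrained, WT trained over WT untrained, Tg trained over WT trained and Tg untrained over WT untrained. Chchd4 stands at 1.42 and 1.36 in the genotype panels, while the substrates lie between -0.30 and 0.34 in all 4.

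Training in Tg gave the largest median among the 7 comparisons, though no gene was called: the fitted log2FC was positive for 28 of the 32 substrates, with a median of 0.16 and a range of -0.14 to 0.34, against a median of 0.00 over all tested genes. Summed over the 32, Tg trained libraries held 1364, 1370, 1378 and 1400 CPM, against 1261, 1217, 1115 and 1356 CPM in Tg untrained libraries. All Tg trained libraries lay above all Tg untrained libraries in that sum, though Tg untrained replicate 4 came close to the lowest trained library. Gene by gene, the groups did not overlap for 14 of the 32, all with Tg trained above, where 4.65% of all tested genes had trained libraries wholly above and 4.52% wholly below. The 14 were Chchd1, Chchd2, Chchd3 and Chchd5, Cox17, Cox19, Cmc2, Coa4 and Coa7, Timm8a1 and Timm17a, and Ndufb10, Ndufs5 and Uqcrh. This count rests on scaling beyond library totals. With RLE factors in place of TMM it was also 14, beside 4.64% of all tested genes above and 4.6% below. Upper-quartile factors gave 14 too, beside 4.42% and 4.73%. With library totals and no TMM factors it was 2, beside 1.13% of all tested genes above and 10.7% below. The substrates' median was then 0.05 where that of all genes was -0.11. TMM factors were 0.924 to 0.98 in Tg trained and 0.995 to 1.105 in Tg untrained libraries, and the share of counts from the mitochondrial genome was 39.0% to 40.8% in Tg trained and 35.3% to 38.9% in Tg untrained libraries. Their part in the result was not tested. Without the mitochondrial genome and 7SL rows the count was 13, beside 4.24% of all tested genes above and 4.81% below. Tg untrained replicate 3 had the lowest level of its group for 21 of the 32 substrates, and without it the median was 0.10 and 13 genes did not overlap, beside 5.41% of all tested genes above and 6.26% below.

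Other lists of mitochondrial proteins were set beside the substrates for training in Tg, a comparison in which edgeR called 0 of all tested genes (1938 at an unadjusted p under 0.05) and DESeq2 called 126, no substrate among them. Nuclear subunits of complexes I, III and IV had a positive log2FC in 50 of 50, a median of 0.16 and 16 genes without overlap, all with Tg trained above. Cytochrome oxidase assembly factors outside the 32 had a median of 0.14, with 12 of 14 positive and 1 without overlap, and MICOS and cristae genes a median of 0.15, with 8 of 9 positive and 1 without overlap. TOM and TIM subunits had a median of 0.08, with 15 of 18 positive and 2 without overlap. The smallest p among these was that of Tomm5, a small TOM subunit, at a log2FC of 0.29 (SE 0.07, edgeR adjusted p = 0.140). Markers of other cells also differed between these libraries. Adipocyte markers summed to 61.8 to 77.6 CPM in Tg trained and 90.3 to 132 CPM in Tg untrained libraries. All 8 tested were lower at an unadjusted p under 0.05 and none was called in this comparison. With training in WT, 6 of 8 were lower at that level. For training averaged over genotypes, 5 of 8 were called lower, beside 0.457% of all tested genes called in either direction. Macrophage markers summed to 23.7 to 31.6 CPM in Tg trained and 27.0 to 49.6 CPM in Tg untrained libraries, with 3 of 9 lower at an unadjusted p under 0.05. Slow-twitch markers summed to 88.8 to 123 CPM in Tg trained and 84.8 to 218 CPM in Tg untrained libraries, with 7 of 10 lower and 1 higher at an unadjusted p under 0.05, a median log2FC of -1.185 and none called. Fibroblast markers summed to 358.5 to 539.8 CPM in Tg trained and 449.9 to 683.5 CPM in Tg untrained libraries, with 3 of 7 lower at an unadjusted p under 0.05. Schwann cell markers had a positive log2FC in 0 of 6, a median of -0.418 and 0 lower at that level. Wholly lower in Tg trained were 3 of 7 fibroblast, 5 of 8 adipocyte, 0 of 9 macrophage and 1 of 10 slow-twitch markers. In the slow-twitch list 1 was wholly higher. Of all tested genes, 6.81% were lower at an unadjusted p under 0.05 and 4.52% wholly lower. Fibre markers summed to 178100 to 188800 CPM in Tg trained and 166000 to 182500 CPM in Tg untrained libraries. No macrophage, adipocyte, fibroblast, Schwann cell or slow-twitch marker was at 0 in all libraries, and their part in the substrates' values was not tested. Without the libraries above 10 CPM of Myh7 (Tg untrained replicates 2 and 3 here), 14 substrates did not overlap between the 4 Tg trained and 2 Tg untrained libraries, beside 10.2% of all tested genes. Under the same setting the substrates' median was 0.08 with 26 of 32 positive, and 4 were higher and 0 lower at an unadjusted p under 0.05, beside 4.69% and 4.8% of all tested genes.

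**Figure D4:**
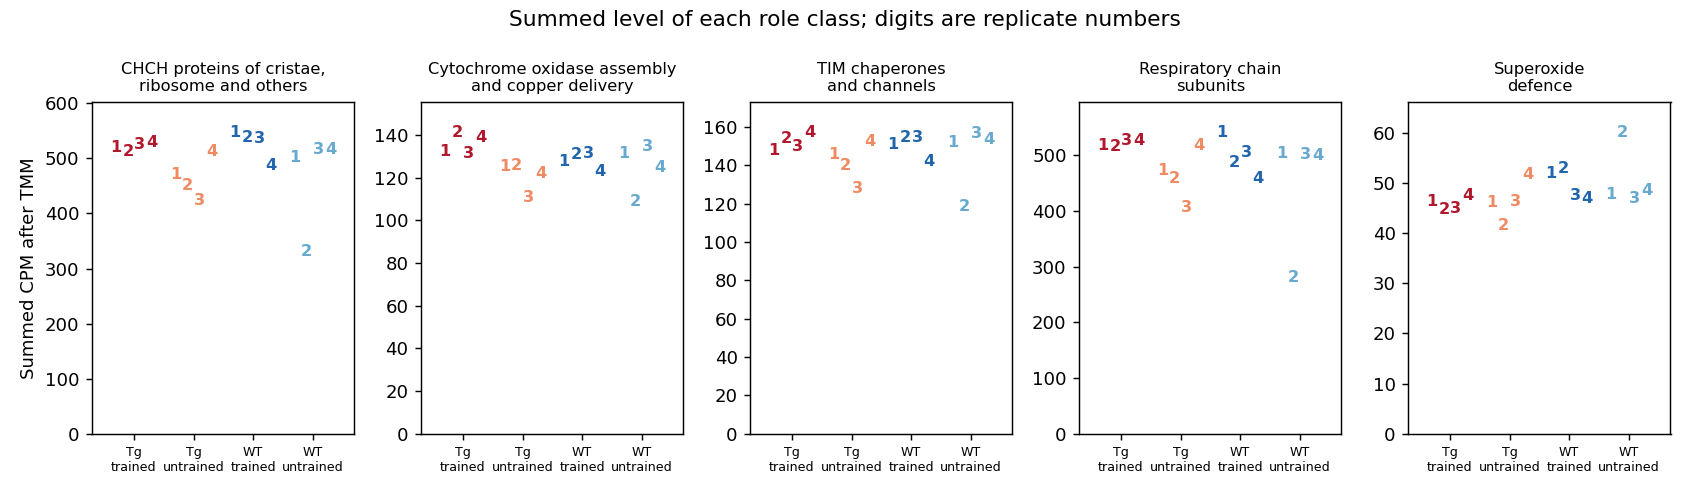
Summed CPM of the substrates in each of 5 role classes, by library, with the replicate number as the plotting symbol; groups run Tg trained, Tg untrained, WT trained, WT untrained and each axis starts at 0. Respiratory subunits sum to 516.8 to 527.7 CPM in Tg trained and 406.6 to 518.7 CPM in Tg untrained libraries. WT untrained replicate 2 is the lowest of its group in 4 of the 5 panels and the highest in superoxide defence.

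Among the CHCH proteins of cristae, ribosome and other functions, Chchd5 had the smallest p for training averaged over genotypes. Chchd5 (ENSMUSG00000037938.4, chr2:129129700-129134134) encodes a small intermembrane-space protein of little known function, whose cysteine stretch is shown above. It had 2.77, 2.83, 3.27 and 2.68 CPM in Tg trained and 2.25, 2.50, 2.62 and 2.52 CPM in Tg untrained libraries, and 2.88, 2.96, 2.83 and 2.52 CPM in WT trained and 2.16, 2.19, 2.43 and 2.62 CPM in WT untrained libraries. Trained lay wholly above untrained in Tg, and WT trained replicate 4 and WT untrained replicate 4 overlapped. The log2FC with training averaged over genotypes was 0.24 (SE 0.07, edgeR adjusted p = 0.142), with 0.22 in Tg and 0.25 in WT. Chchd2 (ENSMUSG00000070493.3, chr5:129881156-129887470), a CHCH protein that associates with the cristae complex, averaged 137 ± 3.27 CPM in Tg trained, 122 ± 5.02 in Tg untrained, 142 ± 5.05 in WT trained and 131 ± 15.4 in WT untrained libraries (SD, n = 4 each). It had the smallest p of its class for Tg averaged over training, at a log2FC of -0.08 (SE 0.05, edgeR adjusted p = 0.468), and of -0.12 (edgeR adjusted p = 0.086) without WT untrained replicate 2. Chchd7 (ENSMUSG00000042198.12, chr4:3938888-3951046), the counterpart of yeast Cox23, had 6.66, 6.35, 6.67 and 6.77 CPM in Tg untrained and 6.31, 4.20, 6.96 and 6.20 CPM in WT untrained libraries. Its log2FC of 0.16 without training was the highest of Tg against WT among substrates of at least 5 CPM, and was 0.03 without WT untrained replicate 2. Neither value passed the test (edgeR adjusted p = 0.529 with all libraries).

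The remaining 4 of this class were Chchd1, a protein of the mitochondrial small ribosomal subunit, Chchd3 and Chchd6, the MICOS subunits Mic19 and Mic25, and Chchd10. Chchd3 averaged 142 ± 1.83 CPM in Tg trained, 119 ± 12.7 in Tg untrained, 134 ± 7.35 in WT trained and 123 ± 23.9 in WT untrained libraries (SD, n = 4 each). Its log2FC with training in Tg was 0.25 (edgeR adjusted p = 0.443), and without WT untrained replicate 2 it was 0.25 at an edgeR adjusted p of 0.0771. Chchd10 (chr10:75933130-75937747), the highest of the 32 in CPM, had 203, 199, 203 and 213 CPM in Tg trained and 188, 174, 172 and 219 CPM in Tg untrained libraries, and 221, 223, 211 and 191 CPM in WT trained and 193, 104, 209.5 and 200.3 CPM in WT untrained libraries. Groups overlapped in both genotypes for Chchd10. Chchd6, near 1 CPM throughout, had the largest SE of the 32 for training in Tg (0.19) and a log2FC between -0.14 and 0.10 in the pairwise comparisons. For training in Tg the class had 6 of 7 positive and a median of 0.16. For training in WT it had 6 of 7 positive and a median of 0.13 (5 of 7 and 0.045 without WT untrained replicate 2).

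Among the genes of cytochrome oxidase assembly and copper delivery, Cox17 was the substrate closest to a call for Tg against WT. Cox17 (ENSMUSG00000046516.10, chr16:38346991-38352763) encodes the copper chaperone that loads SCO1 and COX11, and its twin CX9C stretch is shown above. It had 17.3, 18.7, 17.0 and 17.6 CPM in Tg untrained and 20.7, 21.1, 21.3 and 18.7 CPM in WT untrained libraries. All but Tg untrained replicate 2 and WT untrained replicate 4, both at 18.7 CPM, were clear of the other group. The log2FC was -0.21 (SE 0.06, edgeR adjusted p = 0.107), and DESeq2 gave -0.21 with an adjusted p of 0.037. Over the left-out libraries the edgeR adjusted p ran from 0.0668 to 0.234. With training the levels were 19.6, 20.4, 20.6 and 19.2 CPM in Tg and 19.1, 18.4, 20.9 and 17.9 CPM in WT libraries, which overlapped (log2FC 0.07, edgeR adjusted p = 0.866). The difference between the training responses, Tg minus WT, was 0.28 on the log2 scale (SE 0.08, edgeR adjusted p = 0.602), from a log2FC of 0.18 in Tg and -0.10 in WT. With all libraries Cox17 was the only substrate with an unadjusted p under 0.05 in that difference. Without WT untrained replicate 2 there were 6, all with a positive difference (Cox17, Chchd3, Coa7, Timm8a1, Timm22 and Uqcrh), beside 4.38% of all tested genes.

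Cmc2 (ENSMUSG00000014633.15, chr8:116888685-116921455), an assembly factor of cytochrome oxidase, had the highest fitted log2FC with training in Tg. It had 8.24, 7.35, 7.44 and 8.39 CPM in Tg trained and 6.62, 6.41, 5.23 and 6.60 CPM in Tg untrained libraries, without overlap, at a log2FC of 0.34 (SE 0.13, edgeR adjusted p = 0.363). In WT it had 9.17, 7.57, 7.52 and 5.89 CPM in trained and 6.73, 5.03, 6.86 and 7.57 CPM in untrained libraries, which overlapped. Averaged over genotypes the log2FC was 0.27 (SE 0.09, edgeR adjusted p = 0.206), and 0.21 without WT untrained replicate 2. Cox19 (ENSMUSG00000045438.12, chr5:139336189-139351418), a redox partner in copper delivery, showed how far a single library carried a value. It had 10.1, 9.63, 9.70 and 9.86 CPM in Tg trained and 9.35, 7.80, 8.01 and 9.29 CPM in Tg untrained libraries, and 9.45, 10, 7.78 and 9.80 CPM in WT trained and 8.03, 14.9, 9.36 and 9.49 CPM in WT untrained libraries. The 14.9 CPM of WT untrained replicate 2 was the highest of the 16. The log2FC with training in WT was -0.17 with this library and 0.04 without it, and that of Tg against WT without training was -0.28 with it and -0.06 without it. The other 6 of the class were Cmc1 and Cmc4 and the assembly factors Coa4, Coa5, Coa6, which helps copper reach cytochrome oxidase, and Coa7, and all had fitted log2FC between -0.14 and 0.21 in the pairwise comparisons. For training in Tg 8 of 9 were positive with a median of 0.18, and for training in WT 4 of 9 with a median of -0.02 (3 of 9 and -0.02 without WT untrained replicate 2).

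**Figure D5:**
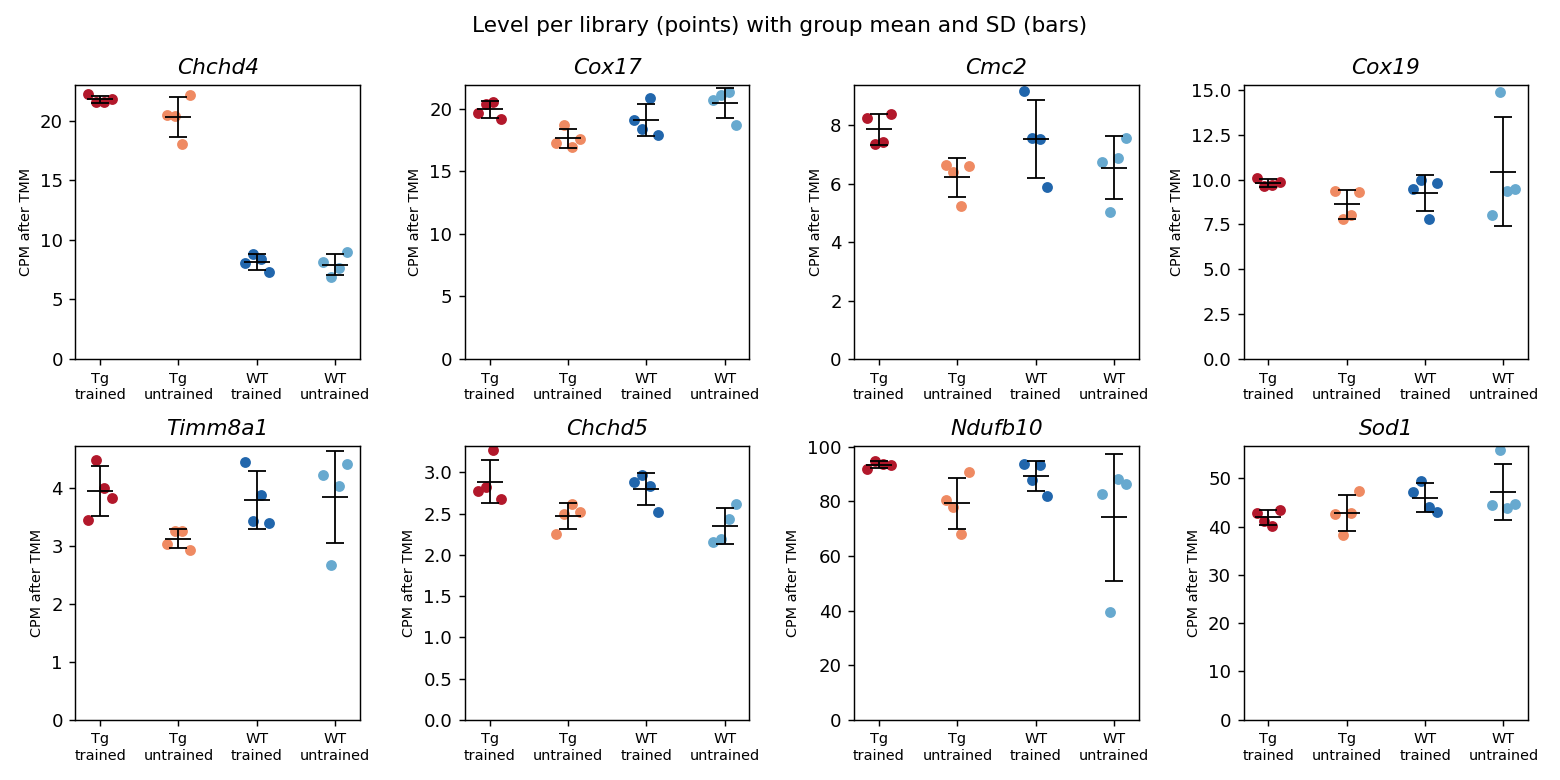
CPM of Chchd4 and 7 substrates in each library (points) with group mean and SD (bars, n = 4), in the order Tg trained, Tg untrained, WT trained, WT untrained, with axes from 0. Chchd4 separates the genotypes, Cmc2, Timm8a1 and Chchd5 in Tg trained lie above Tg untrained, and WT untrained replicate 2 is the single high point of Cox19 (14.9 CPM) and low point of Ndufb10 (39.4 CPM).

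The TIM class holds the soluble small Tim proteins, which carry hydrophobic precursors across the intermembrane space, and Timm17a and Timm22, parts of the inner membrane channels. Timm8a1 (ENSMUSG00000048007.4, chrX:134537256-134541865), whose human counterpart is mutated in a deafness and dystonia syndrome, had the lowest Tg untrained levels relative to WT. It had 3.44, 4.47, 3.99 and 3.83 CPM in Tg trained and 3.03, 3.26, 3.25 and 2.93 CPM in Tg untrained libraries, and 4.45, 3.43, 3.88 and 3.39 CPM in WT trained and 4.21, 2.67, 4.03 and 4.41 CPM in WT untrained libraries. Every Tg trained library lay above every Tg untrained library, and apart from the 2.67 CPM of WT untrained replicate 2 the WT untrained libraries also lay above the Tg untrained ones. Training in Tg gave a log2FC of 0.34 (SE 0.14, edgeR adjusted p = 0.392). For Tg against WT without training the log2FC was -0.30 (SE 0.14, edgeR adjusted p = 0.313) with all libraries and -0.44 (edgeR adjusted p = 0.0719) without WT untrained replicate 2. Timm17a (ENSMUSG00000062580.9, chr1:135295213-135313778), a subunit of the TIM23 channel, averaged 79.0 ± 2.75 CPM in Tg trained, 70.3 ± 6.24 in Tg untrained, 77.0 ± 4.74 in WT trained and 72.3 ± 11.1 in WT untrained libraries (SD, n = 4 each). Its log2FC with training averaged over genotypes was 0.13 (SE 0.07, edgeR adjusted p = 0.402), and 0.07 without WT untrained replicate 2. Timm8b (ENSMUSG00000039016.5, chr9:50603910-50605320) had the lowest log2FC with training in Tg among substrates of at least 5 CPM, -0.05 (SE 0.07, edgeR adjusted p = 0.826), at 22.8, 22.8, 22.02 and 24.3 CPM in Tg trained and 23.9, 22.9, 22.8 and 25.7 CPM in Tg untrained libraries. The partners Timm9 and Timm10, which chaperone carrier proteins, and Timm10b, Timm13 and Timm22 had fitted log2FC between -0.13 and 0.16 in the pairwise comparisons. For training in Tg 7 of 8 were positive with a median of 0.07, and for training in WT 3 of 8 with a median of -0.01 (2 of 8 and -0.09 without WT untrained replicate 2).

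All 6 respiratory chain subunits had a positive log2FC with training in both genotypes, at 0.11 to 0.24 in Tg and 0.11 to 0.27 in WT, and none was called. Without WT untrained replicate 2, 3 of the 6 were negative in WT, and the values there ran from -0.06 to 0.05. Ndufb10 (ENSMUSG00000040048.14, chr17:24722060-24724478), a complex I subunit, had 92.0, 94.7, 93.8 and 93.5 CPM in Tg trained and 80.6, 78.0, 68.1 and 90.9 CPM in Tg untrained libraries, without overlap. In WT it had 93.7, 87.7, 93.2 and 82.1 CPM in trained and 82.7, 39.4, 88.2 and 86.5 CPM in untrained libraries, which overlapped. The log2FC in WT was 0.27 (SE 0.17, edgeR adjusted p = 0.653) with all libraries and 0.05 without WT untrained replicate 2. Ndufa8 (ENSMUSG00000026895.7, chr2:36036326-36049406), another complex I subunit, averaged 56.7 ± 2.74 CPM in Tg trained, 48.5 ± 6.65 in Tg untrained, 52.0 ± 3.71 in WT trained and 45.3 ± 13.8 in WT untrained libraries (SD, n = 4 each). Its log2FC for Tg averaged over training was 0.11 (SE 0.12, edgeR adjusted p = 0.682) and 0.01 without WT untrained replicate 2. Ndufb7 and Ndufs5 of complex I, Cox6b1 of complex IV and Uqcrh, the hinge protein of complex III, lay between 44.6 and 139 CPM on average over the 16 libraries.

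The superoxide defence class holds an enzyme and the chaperone that loads it. Sod1 (ENSMUSG00000022982.10, chr16:90220754-90226329), the copper-zinc superoxide dismutase, had 42.8, 41.2, 40.04 and 43.4 CPM in Tg trained and 42.6, 38.1, 42.9 and 47.3 CPM in Tg untrained libraries, and 47.2, 49.5, 44.1 and 43.0 CPM in WT trained and 44.4, 55.9, 43.9 and 44.7 CPM in WT untrained libraries. Averaged over training its log2FC in Tg was -0.14 (SE 0.06, edgeR adjusted p = 0.230), and -0.09 without WT untrained replicate 2. With all libraries it was the only substrate with an unadjusted p under 0.05 in that comparison, where 8.88% of all tested genes were lower at that level. Without WT untrained replicate 2 there were 5, all lower (Sod1, Chchd1, Chchd2, Coa7 and Timm8a1), beside 9.22% of all tested genes. Ccs (ENSMUSG00000034108.6, chr19:4825366-4839332), which inserts copper into SOD1, averaged 3.97 ± 0.586 CPM in Tg trained, 3.67 ± 0.441 in Tg untrained, 3.81 ± 0.523 in WT trained and 3.60 ± 0.552 in WT untrained libraries (SD, n = 4 each). Its log2FC with training averaged over genotypes was 0.10 (SE 0.10, edgeR adjusted p = 0.675), and 0.14 without WT untrained replicate 2.

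Training in WT and Tg against WT without training both lean on WT untrained replicate 2. With all libraries, the median log2FC of the substrates was 0.10 for training in WT (20 of 32 positive) and -0.02 for Tg against WT without training (14 of 32 positive). Without that library the medians were -0.01 (15 positive) and -0.11 (5 positive). For Tg against WT without training, no substrate had groups without overlap with all libraries, where 4.33% of all tested genes had Tg wholly above and 4.18% wholly below. Without WT untrained replicate 2, 8 substrates had Tg untrained wholly below WT untrained, beside 7.51% of all tested genes, and 8 were lower at an unadjusted p under 0.05, beside 7.65% of all tested genes. The smallest adjusted p among these were 0.0719 for Timm8a1, 0.0805 for Coa7 (log2FC -0.28) and 0.102 for Chchd2 (log2FC -0.18), all from edgeR without that library. For training in WT no substrate was without overlap with all libraries, beside 2.36% of all tested genes above and 2.02% below. For Tg against WT with training none was either, beside 2.94% above and 2.76% below, and the median was 0.04 with 23 of 32 positive. The difference between the training responses had a median of 0.04 with all libraries and 0.13 without WT untrained replicate 2, and no substrate was called in either. Training in Tg and Tg against WT without training share the Tg untrained libraries, so their values are not separate evidence. Cell markers also differed in Tg against WT without training. At an unadjusted p under 0.05, slow-twitch markers were higher in 7 of 10 and Schwann cell and endothelial markers in 3 of 6 each. Smooth muscle and pericyte markers were higher in 2 of 6, with 1 called, and macrophage markers lower in 1 of 9. Of all tested genes, 8.17% were higher and 7.98% lower. Macrophage markers summed to 27.0 to 49.6 CPM in Tg untrained and 40.6 to 69.3 CPM in WT untrained libraries. At that level and averaged over training, 7 of 9 macrophage markers were lower in Tg and 6 of 6 endothelial markers higher, none called. Smooth muscle and pericyte markers were then higher in 3 of 6, with 2 called. The part of these markers in the substrates' values was not tested.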

How the data were processed

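Per the labels' protocols, an RNeasy kit gave the RNA and a SMARTer mRNA-seq kit the libraries. Per the submitters' processing notes, STAR 2.7.8a, RSEM 1.3.2 and the mm10 build were used; the annotation release and strandedness are not given in the sources used here. The authors deposited RSEM expected counts per gene, not normalized, of which 12.48% were not whole numbers; RSEM shares reads among genes with common sequence. From there, counts were rounded, filtered with filterByExpr by group (17490 genes) and scaled with TMM, and all 16 libraries were fitted together with edgeR 4.0.16 (R 4.3.3), by its quasi-likelihood test with group means as coefficients. Calls needed an adjusted p under 0.05 (Benjamini-Hochberg, over all tested genes). The pipeline was tested on simulated data. CPM denotes counts relative to the TMM-adjusted library size. Positions, exon lengths and sequences came from GENCODE M21 (GRCm38), to which 55227 of 55487 gene identifiers matched without version.

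The alternatives were RLE, upper-quartile and library-total scaling, no filter and a CPM filter of 1 in 4 libraries, DESeq2 1.42.0, limma-voom (limma 3.58.1), robust dispersion, a replicate block, leaving out each library, only the 8 libraries of a contrast, and leaving out libraries above 10 CPM of Myh7 or of Alb or the mitochondrial genome and 7SL rows. The counts of genes whose groups did not overlap, and the principal transcript length, were added after seeing the data. Replicates differed beyond counting noise, with a chi-square per degree of freedom of 7.06 or more in each pair. The members and lists were chosen with earlier results of these data known. Values by library, or group means with SD, are given for Chchd4 and for members chosen by rule. The rule took the members with the highest and lowest log2FC in each pairwise comparison among those of at least 5 CPM. It also took the member of each role class with the smallest p for training and for Tg. Chchd2, Timm17a, Ndufa8 and Ccs are given as group means with SD. Of the other mitochondrial lists set beside training in Tg, the gene with the smallest p across them, Tomm5, is named. Gfer and Aifm1 are named for the rest of the relay. Chchd3, Chchd10 and Coa7 were singled out after their values were seen. The same holds for Cox17 and Timm8a1 in training in Tg and in Tg against WT without training. It also holds for Cox17 in the difference between the training responses and for Chchd5 in training in WT.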

Additional observations from a re-analysis of the deposited data

Results flagged for a closer look

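In 14 of the 132 sets of 4 libraries examined (Chchd4 and 32 substrates in 4 groups), a library lay far from the other 3 by Dixon's test; chance gives such a gap in about 1 in 20 sets. WT untrained replicate 2 accounted for 10 of them. It was the low library for Chchd3 (87.2 CPM, against 132 to 139 CPM in the other 3), Chchd10 (103.9 CPM, against 193 to 209.5), Coa7 (8.82 CPM, against 13.7 to 14.4), Timm8b (19.8 CPM, against 24.6 to 24.8), Ndufa8 (24.8 CPM, against 50.6 to 54.4), Ndufb10 (39.4 CPM, against 82.7 to 88.2), Ndufs5 (34.3 CPM, against 45.2 to 46.1), Cox6b1 (84.2 CPM, against 143 to 150.2) and Uqcrh (68.4 CPM, against 120.6 to 124). It was the high library for Sod1 (55.9 CPM, against 43.9 to 44.7). The remaining 4 fell in 4 different libraries. Cmc2 was low in Tg untrained replicate 3 (5.23 CPM, against 6.41 to 6.62), Coa4 was high in WT untrained replicate 3 (2.19 CPM, against 1.61 to 1.68), Coa6 was high in WT trained replicate 1 (5.47 CPM, against 4.22 to 4.35) and Timm13 was high in WT trained replicate 3 (15.6 CPM, against 13.85 to 14.02).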

How the results depend on the processing

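No substrate was called under any alternative except DESeq2, which called 1 (Cox17, Tg against WT without training, log2FC -0.211, adjusted p = 0.037). The main fit did not pair libraries by replicate number. Correlations of 24 same-numbered pairs ran from -0.215 to 0.215, and 8 were above 0.1. Differently numbered pairs were not examined, so these values cannot decide whether the numbers pair libraries. With a replicate block 0 substrates were called and the median for training in Tg was 0.156.

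With library totals only, the median log2FC was 0.003 for training in WT, 0.051 in Tg and 0.026 averaged, beside medians of all genes of -0.1045, -0.1066 and -0.1091. Without the Myh7 libraries it was -0.002 for training in WT, 0.077 in Tg (26 of 32 positive) and 0.03 averaged; without the Alb libraries it was -0.107 for Tg against WT without training and 0.133 for the difference of responses. Over left-out libraries it ran from -0.009 to 0.141 (training in WT), 0.103 to 0.18 (training in Tg), -0.106 to 0.026 (Tg against WT without training), 0.004 to 0.058 (with training), 0.001 to 0.134 (difference), 0.069 to 0.148 (training averaged) and -0.046 to 0.021 (Tg averaged).

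Counts of substrates without overlap moved as follows, each with the share of all tested genes that did likewise in brackets. For training in WT the higher ones were 4 without the Alb libraries (8.08%) and 0 to 4 over left-out libraries (3.56% to 4.86%), and the lower ones 1 with library totals (2.77%), 2 without the Myh7 libraries (6.11%), 3 without the Alb libraries (8.6%) and 0 to 1 over left-out libraries (2.93% to 5.12%). For training in Tg the higher ones were 2 with library totals (1.13%) and 13 to 17 over left-out libraries (5.41% to 7.74%), and the lower ones 0 to 1 (5.58% to 8.43%). For Tg against WT without training the lower ones were 2 with library totals (1.64%), 9 without the Myh7 libraries (15.7%), 9 without the Alb libraries (10.3%) and 0 to 8 over left-out libraries (5.51% to 7.51%), and the higher ones 0 to 1 (5.95% to 6.85%). With training the higher ones were 1 with upper-quartile factors (3.36%), 3 without the Myh7 libraries (4.64%) and 0 to 3 over left-out libraries (4.11% to 6.14%), and the lower ones 3 without the Alb libraries (4.73%) and 0 to 3 over left-out libraries (3.65% to 6.22%). Over all alternatives, substrates at an unadjusted p under 0.05 numbered 0 to 16 higher and 0 to 1 lower for training in Tg, 0 to 6 higher for the difference and 0 to 7 lower for Tg averaged. The 16 and the 6 were seen without WT untrained replicate 2, beside 7.51% and 4.38% of all tested genes. For training in Tg, library totals gave 0 higher and 1 lower, beside 0.84% and 10.6%. The share beside the 7 is not given here. Over the same alternatives, genes called ranged from 0 to 126 for training in Tg (0 as reported), 10 to 70 for training in WT (25), 32 to 442 for Tg against WT without training (130), 1 to 54 with training (2), 4 to 35 for the difference (9), 15 to 579 for training averaged (80) and 29 to 640 for Tg averaged (196), the highest with DESeq2 except for training averaged, where it was without the Alb libraries.

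Cox19 reversed with training in WT (-0.283 to 0.045 over left-out libraries, the highest without WT untrained replicate 2, 0.117 without the Myh7 and 0.017 without the Alb libraries) and for Tg against WT without training (0.055 without the Myh7 libraries), and Ccs with training averaged (-0.018 with library totals). The cause was not tested. Depth limits the low genes most: Chchd6 had 27 to 68 counts a library.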
